A study of Mus musculus with 15 samples.

Results

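The 44 genes described here encode the enzymes that join amino acids to transfer RNAs. They were chosen as every gene of the deposited FPKM table whose KEGG annotation holds the pathway 00970 (Aminoacyl-tRNA biosynthesis), leaving out genes of the mitochondrial genome, and they are 44 of the 32479 genes with a count in any library. RNA of the mouse submandibular gland, a salivary gland, had been sequenced in 5 libraries from each of 3 groups. The SJQYD group held NOD/LTJ mice given SJQYD, which the labels do not spell out, the model group untreated mice of that strain, and the control group untreated ICR mice. NOD mice develop an autoimmune inflammation of the salivary glands that is used as a model of Sjögren's syndrome, and ICR is an outbred stock. All mice are labelled wild type. The labels used here state no age, sex, dose or duration and do not say how the mice were related, so the p-values measure the spread between these libraries. Every model mouse is NOD/LTJ and every control mouse is ICR, so between these groups the effects of strain and of disease cannot be told apart.

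Most aminoacyl-tRNA synthetases recognise a single amino acid and its transfer RNAs, and the charged transfer RNA then carries that amino acid to the ribosome. Cytosol and mitochondria use largely separate sets of synthetases, and several of the cytosolic ones sit together in a large assembly, the multisynthetase complex, held by scaffold proteins. A gland that secretes much protein needs a steady supply of charged transfer RNAs, and many cytosolic synthetase genes are known targets of Atf4, the transcription factor of the integrated stress response.

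By role, 8 members encode synthetases of the multisynthetase complex: Dars, Eprs, Iars, Kars, Lars, Mars1, Qars and Rars. A further 13 encode cytosolic synthetases outside the complex: Aars, Cars, Farsa, Farsb, Gars, Hars, Nars, Sars, Tars, Tarsl2, Vars, Wars and Yars. Of these, Gars and the complex member Kars also serve mitochondria. The mitochondrial synthetases are 17, among them Cars2, Ears2, Iars2, Lars2, Nars2, Pars2, Tars2, Wars2 and Yars2. The other 6 enzymes modify an amino acid already on its transfer RNA. Gatb, Gatc and Qrsl1 form the amidotransferase that makes mitochondrial glutaminyl-tRNA, Mtfmt formylates the mitochondrial initiator methionyl-tRNA, and Pstk and Sepsecs make selenocysteinyl-tRNA from seryl-tRNA. All 44 passed the filter on low counts, and the lowest count of any member in any library was 17, for Wars2.

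SJQYD libraries held 39510018 to 62335235 counts, model libraries 52746925 to 68694263 and control libraries 54836440 to 63101584. A single secretory gene, Mucl2, held 15.5 to 46.4% of the counts in SJQYD libraries, 25.8 to 45.6% in model libraries and 42.2 to 53.8% in control libraries, and levels below are therefore CPM, counts per 1000000 after scaling by TMM factors, unless FPKM is named. Of 12 submandibular markers, 11 were found. The summed level of 5 sublingual markers differed widely between libraries, and 1 of them, Dcpp1, is also on the submandibular list. That sum was 37.9 to 18947 CPM in SJQYD libraries, 1448 to 10893 CPM in model libraries and 15.1 to 14700 CPM in control libraries. The medians were 10613, 5966 and 798 CPM in the same order. The part of sublingual tissue in the values below was not tested. Parotid amylase, Amy1, was highest in SJQYD 1, model 3 and control 2, at 5821, 20270 and 4410 CPM, with model 1 at 2443, control 1 at 1348 and the others at 2.93 to 223 CPM. Amy1 is 1 of 6 parotid markers, whose summed level pointed to other libraries in the SJQYD and control groups. That sum was highest in SJQYD 5, model 3 and control 3, at 81907, 171765 and 125445 CPM. Xist stood at 1.01 CPM in SJQYD 3, against 162 to 270.2 CPM in the other 14 libraries. For members called with all 15 libraries, results are given with and without SJQYD 1, SJQYD 3, model 3 and control 2 where their call changes. Some calls gained by other members are named as well.

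On the FPKM scale, which takes gene length into account, the synthetase genes spanned a wide range. Lars2, the mitochondrial leucyl-tRNA synthetase, had the highest mean over 15 libraries at 49.5 FPKM, followed by the seryl-tRNA synthetase Sars at 17.9 and the methionyl-tRNA synthetase Mars1 at 14.3. The mitochondrial Wars2 had the lowest, at 0.186 FPKM. Median mean levels were 6.37 FPKM for the 8 complex members, 4.56 for the 13 other cytosolic synthetases, 1.40 for the 17 mitochondrial synthetases and 1.09 for the 6 other enzymes. Without Lars2 the highest mitochondrial synthetase was Tars2 at 3.16 FPKM, below the medians of both cytosolic sets. On the cytosolic side Farsb, Hars and Iars, at 3.09, 3.07 and 2.58 FPKM, and Eprs also lay below Tars2, and Tarsl2, a second threonyl-tRNA synthetase, was the lowest at 0.291 FPKM. Over all members the median of the mean levels was 2.52 FPKM, against 0.994 FPKM over all 18136 tested genes.

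**Figure D1:**
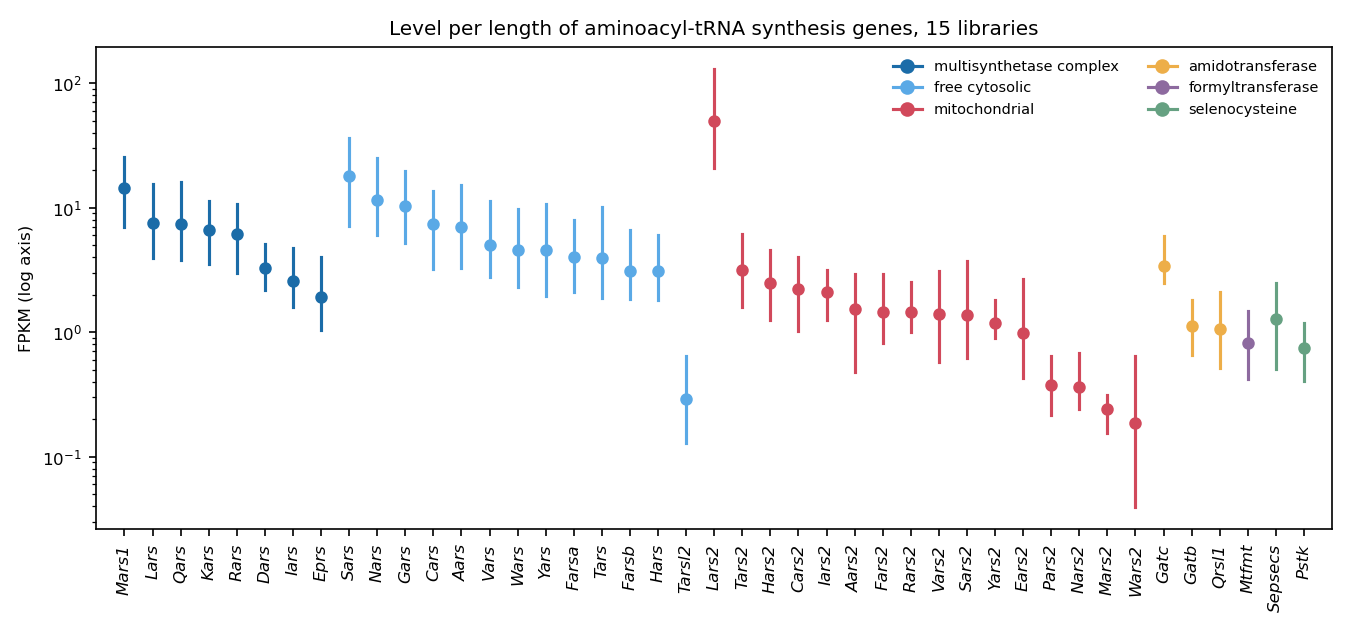
Mean level of the members over 15 libraries, with 1 of the 44 not plotted, in FPKM on a log axis, ordered by role and level, with lines from the lowest to the highest library. Most cytosolic synthetases lie above the mitochondrial synthetases other than Lars2, which is at 49.5 FPKM, and the lowest cytosolic one is Tarsl2 at 0.291 FPKM.

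The median member varied less within a group than the median tested gene. The median coefficient of variation of CPM over 5 libraries was 13.4% for the members in SJQYD glands, 16.8% in model glands and 16.6% in control glands. Over all tested genes it was 24.0%, 24.0% and 25.2% in the same groups. The members are also expressed above the median of tested genes, and no allowance was made for that.

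Untreated NOD/LTJ glands were first set against ICR glands. Of the 44 members, 0 were called higher and 1 lower in model glands, where called means an edgeR adjusted p under 0.05, against a background of 2.57% higher, 2.5% lower and 5.07% in all of the tested genes. The lower gene was Yars2, the mitochondrial tyrosyl-tRNA synthetase. At an unadjusted p under 0.05 there were 10 members, or 22.7%, beside 21.9% of all tested genes. The median log2 fold change was 0.07 over the members and 0.03 over all tested genes. The 95% interval of the fold change lay within 2-fold in both directions for 42 of 44 members, beside 56.5% of all tested genes, so a difference of 2-fold or more lay outside the interval for most members. The median of the mean levels was 13.8 CPM for the members and 4.46 CPM for all tested genes, and this contrast makes no allowance for level. The count of called members was 4 without control 2 (Hars, Nars2, Tars2 and Yars2), 3 without model 4, 1 without SJQYD 2 and 0 without any other single library. Without SJQYD 1, model 3 and control 2 together it was 2 (Tars2 and Yars2). Of all tested genes, 1799 of 18535 were called without control 2, 1304 of 18544 without model 4 and 783 of 18474 without SJQYD 2. Genes called were 354 to 917 without any other single library and 1507 of 18035 without the 3 libraries together. Control 2 also had the highest summed T-cell and B-cell markers of the control libraries, at 81.9 and 80.2 CPM, beside control medians of 11.1 and 6.07 CPM, and their part in these counts was not tested.

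Yars2 (ENSMUSG00000022792, chromosome 16, 16302965 to 16309632, plus strand, GRCm38) stood at 3.78, 4.02, 3.29, 3.94 and 3.61 CPM in model 1 to 5, against 7.22, 3.93, 5.64, 6.27 and 5.51 CPM in control 1 to 5. Model libraries lay close together, and control 2 was the only control library within their range. The log2 fold change was -0.61 ± 0.17 (SE, n = 5 per group, edgeR adjusted p = 0.0482). In SJQYD glands Yars2 averaged 4.02 ± 0.711 CPM (SD), and its log2 fold change against control was -0.51 ± 0.17 without a call (edgeR adjusted p = 0.0663). Without control 2 that value was -0.61 and was called (edgeR adjusted p = 0.0216). The model call was kept without control 2 or without SJQYD 2 and lost without any other single library (edgeR adjusted p = 0.0519 to 0.135). With total-count scaling the log2 fold change of Yars2 in model against control was -0.08 without a call (edgeR adjusted p = 0.804), and with log2(FPKM + 1) it was -0.06 (limma adjusted p = 0.737).

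Nars2, the mitochondrial asparaginyl-tRNA synthetase, and Hars, the cytosolic histidyl-tRNA synthetase, had the next smallest p in this comparison. Nars2 stood at 2.72, 2.28, 2.38, 2.16 and 2.13 CPM in model glands, against 4.93, 2.83, 3.57, 2.82 and 3.33 CPM in control glands. The groups did not overlap, and the log2 fold change of -0.58 ± 0.17 missed the threshold (edgeR adjusted p = 0.0642). Hars had a log2 fold change of -0.52 ± 0.18 (edgeR adjusted p = 0.0951), with model 4 at 10.7 CPM among controls of 7.94 to 11.8 CPM and the other model libraries at 4.56 to 7.37 CPM. Gatc was the other member without overlap, at 5.13 to 7.24 CPM in model glands, against 7.41 to 9.57 CPM in control glands (log2 fold change -0.38 ± 0.15, edgeR adjusted p = 0.145). Together 0 members lay wholly higher and 2 wholly lower, beside 3.05% and 2.71% of all tested genes.

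The tryptophanyl-tRNA synthetase Wars is known to be induced by interferon gamma. Of 20 tested interferon gamma-induced genes 11, or 55%, rose in model against control glands and 0 fell, with a median log2 fold change of 1.14. Of all tested genes 2.57% were called higher and 2.5% lower. Iigp1, an interferon-induced GTPase, had a log2 fold change of 1.92 ± 0.29 (edgeR adjusted p = 0.00221), and Psmb8, an immunoproteasome subunit, 1.68 ± 0.30 (edgeR adjusted p = 0.0064). Wars stood at 16.3, 21.1, 18.5, 16.1 and 17.7 CPM in model glands, against 15.5, 15.4, 18.6, 15.4 and 16.7 CPM in control glands. The groups overlapped, and the log2 fold change was 0.14 with a 95% interval from -0.11 to 0.39 (edgeR adjusted p = 0.534). In SJQYD glands Wars averaged 18.3 ± 2.84 CPM (SD), against 17.9 ± 2.04 CPM in model glands, a log2 fold change of 0.03 ± 0.12 (edgeR adjusted p = 0.953). Of the 20 interferon gamma-induced genes 0 rose and 1 fell in SJQYD against model, with a median of -0.80. The background there was 1.91% higher and 0.838% lower.

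Treated and untreated NOD/LTJ glands were compared to see what differed with SJQYD. Here 2 members rose and 0 fell, against a background of 1.91% higher, 0.838% lower and 2.75% in all of the tested genes. They were Qars, the glutaminyl-tRNA synthetase of the multisynthetase complex, and Tars, the cytosolic threonyl-tRNA synthetase. The members called were 4.55% of the 44. Unadjusted p was under 0.05 for 13 members, or 29.5%, beside 16.2% of all tested genes, and the median log2 fold change was 0.07 over the members and -0.03 over all tested genes. The fold-change interval lay within 2-fold for 41 of 44, beside 58.0% of all tested genes. The count was 4 without model 4 and 3 without control 2 (Ears2, Qars and Tars). It was 1, Qars, without any of SJQYD 1, SJQYD 4, model 1 and model 2. All genes called were then 500 of 18544 tested without model 4 and 509 of 18535 without control 2. They were 333 to 339 in the fits with 1 called member.

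Qars (ENSMUSG00000032604, chromosome 9, 108507706 to 108515941, plus strand, GRCm38) stood at 67.8, 68.4, 64.8, 79.7 and 72.4 CPM in SJQYD 1 to 5, against 38.5, 44.0, 54.9, 51.0 and 48.3 CPM in model 1 to 5. Control 1 to 5 had 50.8, 45.3, 45.1, 41.2 and 37.5 CPM. Every SJQYD library lay above every model and every control library, while model and control libraries overlapped. Its log2 fold change was 0.58 ± 0.11 against model (edgeR adjusted p = 0.00942) and 0.68 ± 0.11 against control (edgeR adjusted p = 0.00128). Both calls were kept without any single library. Scaled by total count in place of TMM, the value against model was 0.68 without a call (edgeR adjusted p = 0.261).

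Tars (ENSMUSG00000022241, chromosome 15, 11382301 to 11399665, minus strand, GRCm38) stood at 37.9, 28.4, 29.8, 32.2 and 25.6 CPM in SJQYD 1 to 5, against 19.6, 18.8, 25.1, 20.5 and 20.9 CPM in model 1 to 5. Control 1 to 5 had 21.5, 29.8, 27.8, 24.8 and 23.2 CPM. SJQYD and model libraries did not overlap, though the gap between SJQYD 5 and model 3 was small, and control libraries overlapped both. Tars had a log2 fold change of 0.55 ± 0.12 against model (edgeR adjusted p = 0.0217) and 0.28 ± 0.12 against control without a call (edgeR adjusted p = 0.162). The call was lost without SJQYD 1, SJQYD 4, model 1 or model 2 (edgeR adjusted p = 0.0509, 0.0541, 0.0584 and 0.0596), and with total-count scaling (edgeR adjusted p = 0.477).

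Groups did not overlap for 8 members that were higher in SJQYD than in model glands and for 1 that was lower, beside 3.21% higher and 2.29% lower among all tested genes. Beside Qars and Tars the higher ones were Farsa, Lars, Vars, Ears2, Nars2 and Sepsecs, of which Lars and Vars are named after their values were seen. Ears2, the mitochondrial glutamyl-tRNA synthetase, stood at 8.71, 7.24, 6.67, 6.36 and 6.39 CPM in SJQYD glands, against 5.49, 5.17, 3.64, 3.90 and 4.50 CPM in model glands. Its log2 fold change of 0.64 ± 0.18 missed the threshold (edgeR adjusted p = 0.0635). It was called without control 2 and with the compared groups alone (edgeR adjusted p = 0.0327 and 0.0486), and with voom (adjusted p = 0.0415). Against control Ears2 was also called without control 2 (edgeR adjusted p = 0.0151). The lower gene, Pars2, the mitochondrial prolyl-tRNA synthetase, stood at 0.856 to 1.12 CPM in SJQYD glands, against 1.38 to 2.48 CPM in model glands, a log2 fold change of -0.75 ± 0.23 (edgeR adjusted p = 0.0943). Ears2, Farsa and Pars2 were called in this comparison with DESeq2 (adjusted p = 0.0158, 0.0376 and 0.0229 in that order).

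Among the free cytosolic synthetases 9 of 13 had a positive log2 fold change in SJQYD against model glands, with a median of 0.24. In the multisynthetase complex it was 6 of 8 with a median of 0.08, in the mitochondrial set 10 of 17 with a median of 0.05, and among the other enzymes 3 of 6 with a median of -0.02. Of all tested genes 46.8% had a positive value. The glycyl-tRNA synthetase Gars stood at -0.03 ± 0.19 and Kars, the lysyl-tRNA synthetase, at -0.19 ± 0.14 on the log2 scale. Eprs, which joins glutamate and proline in a single protein, was at 0.13 ± 0.14, and the alanyl-tRNA synthetase Aars at 0.25 ± 0.14, all without a call (edgeR adjusted p = 0.413 to 0.967).

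SJQYD and model libraries also differed in measures other than these genes. The summed level of 7 macrophage markers was 72.4 to 93.1 CPM in SJQYD glands, against 105 to 131 CPM in model glands. Per2, a clock gene, stood at 26.4 to 55.2 CPM in SJQYD glands, against 1.07 to 4.22 CPM in model glands, and the labels give no hour of collection. In bulk tissue fewer cells of a type and less RNA per cell cannot be told apart. The part of either in the values of Qars and Tars was not tested.

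The comparison of SJQYD with control sets treated NOD/LTJ glands against ICR glands and shares its SJQYD and control libraries with the comparisons above. In it 4 members rose, Qars, Farsa, Yars and Lars2, and 0 fell, which is 9.09% of the members against a background of 5.22% higher, 5.9% lower and 11.1% in all of the tested genes. The median log2 fold change was 0.11 over the members and 0.04 over all tested genes, and 15 members, or 34.1%, had an unadjusted p under 0.05, beside 26.6% of all tested genes. Groups did not overlap for 3 higher members (Qars, Farsa and Lars2) and 1 lower member (Iars), beside 5.07% higher and 5% lower among all tested genes. Iars, named after its values were seen, is the isoleucyl-tRNA synthetase of the complex and had a log2 fold change of -0.52 ± 0.18 without a call (edgeR adjusted p = 0.073). The count was 2, Qars and Farsa, without any of SJQYD 1, 2 and 4 and control 1 and 5, and 7 without model 4 or control 2. Without SJQYD 1, model 3 and control 2 together it was 6 (Ears2, Farsa, Qars, Tars2, Vars and Yars2, the last lower). All genes called were 1240 to 1520 in the fits with 2 called members. They were 2168 of 18544 tested without model 4, 2626 of 18535 without control 2 and 1964 of 18035 without the 3 libraries together. Other measures differed here too: Per2 stood at 26.4 to 55.2 CPM in SJQYD glands, against 2.81 to 6.33 CPM in control glands, the clock gene Arntl at 0.484 to 1.13 CPM, against 9.59 to 37.2 CPM, and the summed submandibular markers at 125676 to 545572 CPM, against 452733 to 934800 CPM. Their part in the values of the 4 members was not tested.

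Farsa (ENSMUSG00000003808, chromosome 8, 84856989 to 84869257, plus strand, GRCm38) encodes the alpha subunit of the cytosolic phenylalanyl-tRNA synthetase. It stood at 23.2, 23.2, 22.2, 22.5 and 27.1 CPM in SJQYD 1 to 5, against 18.4, 18.5, 17.1, 18.7 and 16.0 CPM in control 1 to 5. Model 1 to 5 had 19.8, 22.1, 18.9, 16.6 and 17.2 CPM. SJQYD libraries lay above all others, the nearest being model 2. The log2 fold change was 0.41 ± 0.10 against control (edgeR adjusted p = 0.0135) and 0.32 ± 0.10 against model without a call (edgeR adjusted p = 0.096). The call against control was kept without any single library. Farsb, which encodes the other subunit of this enzyme and is set beside Farsa for that reason, stood at 6.27 to 11.0 CPM in SJQYD glands, against 8.62 to 11.0 CPM in control glands, and the groups overlapped.

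Yars (ENSMUSG00000028811, chromosome 4, 129189760 to 129219607, plus strand, GRCm38), the cytosolic tyrosyl-tRNA synthetase, stood at 40.4, 32.0, 34.4, 36.6 and 29.1 CPM in SJQYD 1 to 5, against 22.4, 28.1, 30.7, 23.8 and 27.6 CPM in control 1 to 5. Only SJQYD 5 lay within the control range. Yars had a log2 fold change of 0.38 ± 0.12 (edgeR adjusted p = 0.0437), close to the threshold. The call was lost without any of SJQYD 1 to 4, model 2, 3 or 5, or control 1, 4 or 5 (edgeR adjusted p = 0.0503 to 0.108), and without SJQYD 1, model 3 and control 2 together (edgeR adjusted p = 0.110).

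Lars2 (ENSMUSG00000035202, chromosome 9, 123366927 to 123462666, plus strand, GRCm38) stood at 917, 1063, 497, 882 and 497 CPM in SJQYD 1 to 5, against 453, 315, 473, 389 and 345 CPM in control 1 to 5. Model 1 to 5 had 408, 721, 678, 329 and 925 CPM. SJQYD libraries fell into 3 at 882 to 1063 CPM and 2 at 497 CPM, just above the highest control, and model libraries overlapped both groups. The log2 fold change was 0.96 ± 0.28 against control (edgeR adjusted p = 0.0329), 0.33 ± 0.27 against model and 0.63 ± 0.27 in model against control, both without a call. The call was lost without any of SJQYD 1, 2 or 4 or control 1, 2, 4 or 5 (edgeR adjusted p = 0.052 to 0.0914), and without SJQYD 1, model 3 and control 2 together (edgeR adjusted p = 0.132).

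The level of Lars2 was out of line with the other mitochondrial synthetases, and it was set beside the mitochondrial ribosomal RNA mt-Rnr2, chosen after the values were seen. In SJQYD 1 to 5 mt-Rnr2 stood at 718, 964, 517, 764 and 694 CPM, against 543, 458, 473, 388 and 364 CPM in control 1 to 5. Model 1 to 5 had 447, 703, 372, 322 and 517 CPM. SJQYD 2 was the highest library for both genes and SJQYD 3 was low for both, while SJQYD 5 was low for Lars2 alone. Among model libraries the highest Lars2 was in model 5 and the highest mt-Rnr2 in model 2, and model 3 had Lars2 above every control library with mt-Rnr2 below 4 of the 5. The part of mitochondrial RNA in the Lars2 counts was not tested.

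**Figure D2:**
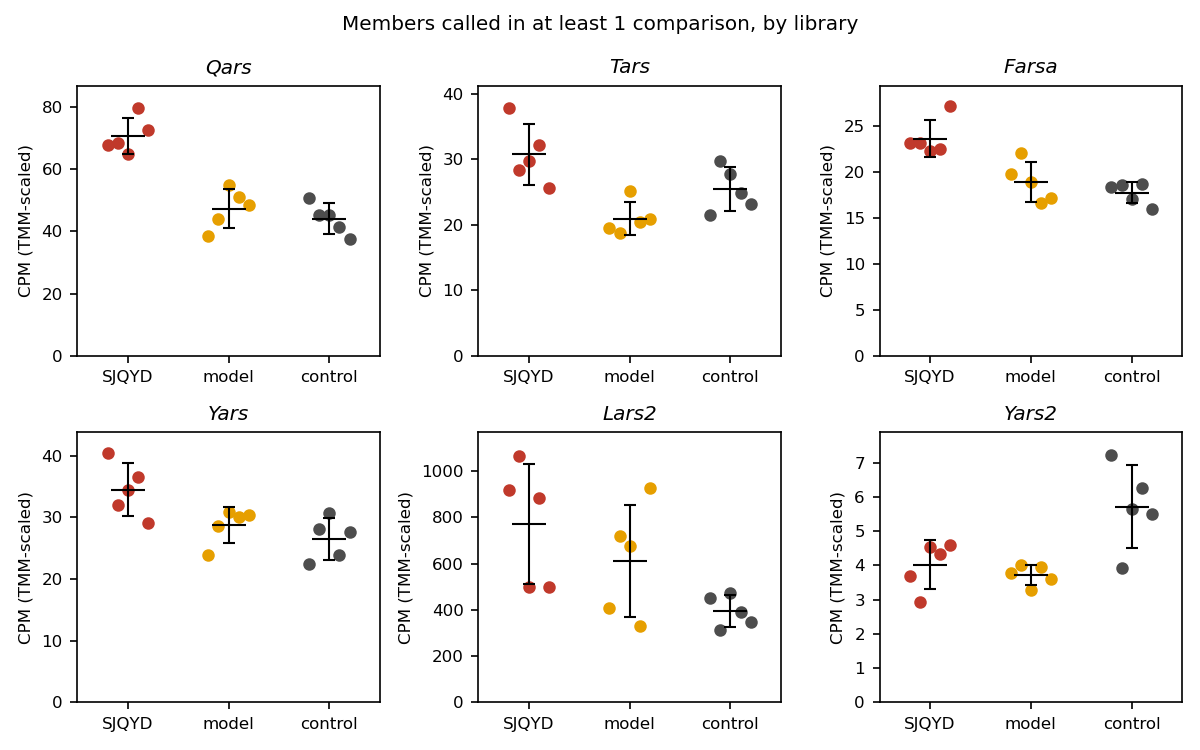
CPM of the 6 members called in at least 1 comparison, by library, with the mean and SD of 5 libraries per group; the axes start at 0. SJQYD libraries of Qars and Farsa lie above all model and control libraries, and 4 of the 5 control libraries of Yars2 lie above all SJQYD and model libraries.

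**Figure D3:**
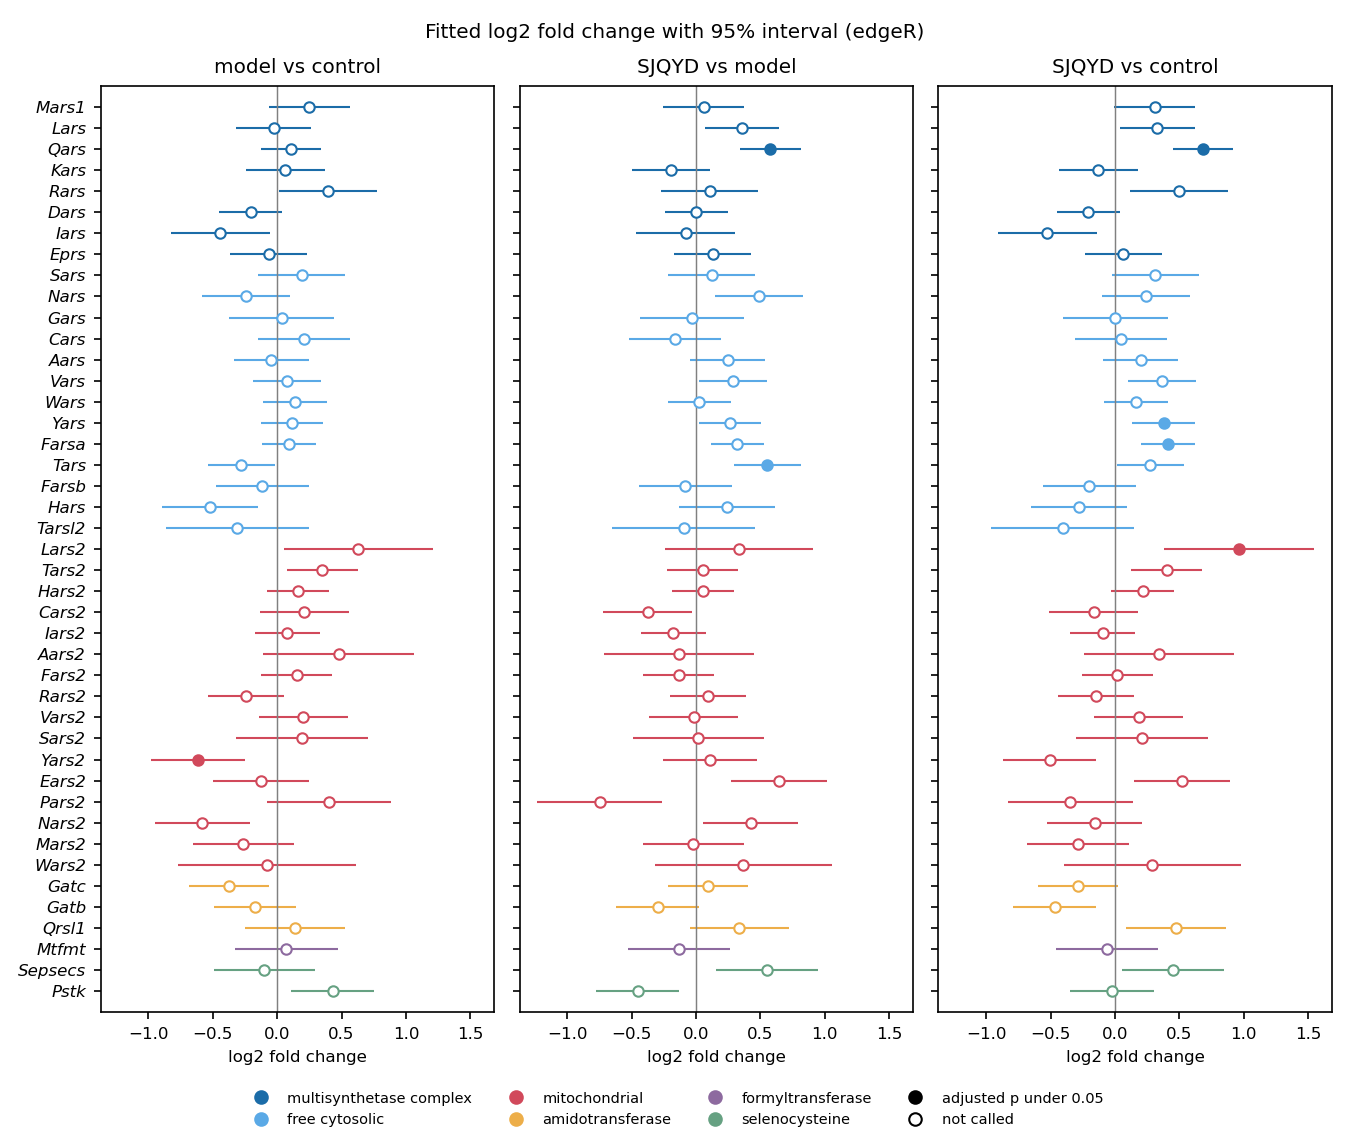
Fitted log2 fold change of the members with its 95% interval in the 3 comparisons, with 1 of the 44 not plotted, coloured by role, with filled points for an edgeR adjusted p under 0.05. Filled points number 1 in model against control, 2 in SJQYD against model and 4 in SJQYD against control, and most intervals cross 0.

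The uncalled members with the smallest p in SJQYD against control were Tars2 and Gatb. Tars2, the mitochondrial threonyl-tRNA synthetase, averaged 26.8 ± 2.60 CPM in SJQYD glands, 25.8 ± 3.61 CPM in model glands and 20.3 ± 3.75 CPM in control glands (SD, n = 5 each). Its log2 fold change was 0.40 ± 0.13 in SJQYD against control (edgeR adjusted p = 0.0565) and 0.35 ± 0.13 in model against control (edgeR adjusted p = 0.124). In SJQYD against control Tars2 was called without control 2, SJQYD 3, model 2 or model 4 (edgeR adjusted p = 0.0119, 0.0431, 0.0489 and 0.0476). In model against control it was called without control 2 (edgeR adjusted p = 0.0286). Gatb averaged 4.65 ± 0.796 CPM in SJQYD glands, 5.72 ± 0.711 CPM in model glands and 6.44 ± 0.953 CPM in control glands, a log2 fold change of -0.47 ± 0.15 in SJQYD against control (edgeR adjusted p = 0.0566). With DESeq2 both Tars2 and Gatb were called in SJQYD against control (adjusted p = 0.0347 and 0.0348). Sepsecs, the enzyme of the last step to selenocysteinyl-tRNA, averaged 12.5 ± 2.06 CPM in SJQYD glands, 8.52 ± 1.19 CPM in model glands and 9.11 ± 2.74 CPM in control glands. Its log2 fold change against model was 0.55 ± 0.19 without a call (edgeR adjusted p = 0.136). Mtfmt averaged 3.25 ± 0.265, 3.57 ± 0.900 and 3.39 ± 0.529 CPM in SJQYD, model and control glands and was not called in any comparison.

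Summed per library, the 21 cytosolic synthetases came to 823 ± 59.9 CPM in SJQYD glands, 724 ± 96.2 CPM in model glands and 706 ± 78.1 CPM in control glands (SD, n = 5 each). The ranges were 746 to 897, 611 to 862 and 646 to 837 CPM and overlapped. The 16 mitochondrial synthetases other than Lars2 summed to 135 ± 7.00, 139 ± 16.0 and 128 ± 7.54 CPM in SJQYD, model and control glands, and the 6 other enzymes to 38.7 ± 3.82, 36.7 ± 1.78 and 37.2 ± 1.74 CPM. Lars2 alone, at 771 ± 259, 612 ± 243 and 395 ± 67.9 CPM, exceeded the sum of the other 16 in every library. These sums are descriptions, and no test was made of them.

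**Figure D4:**
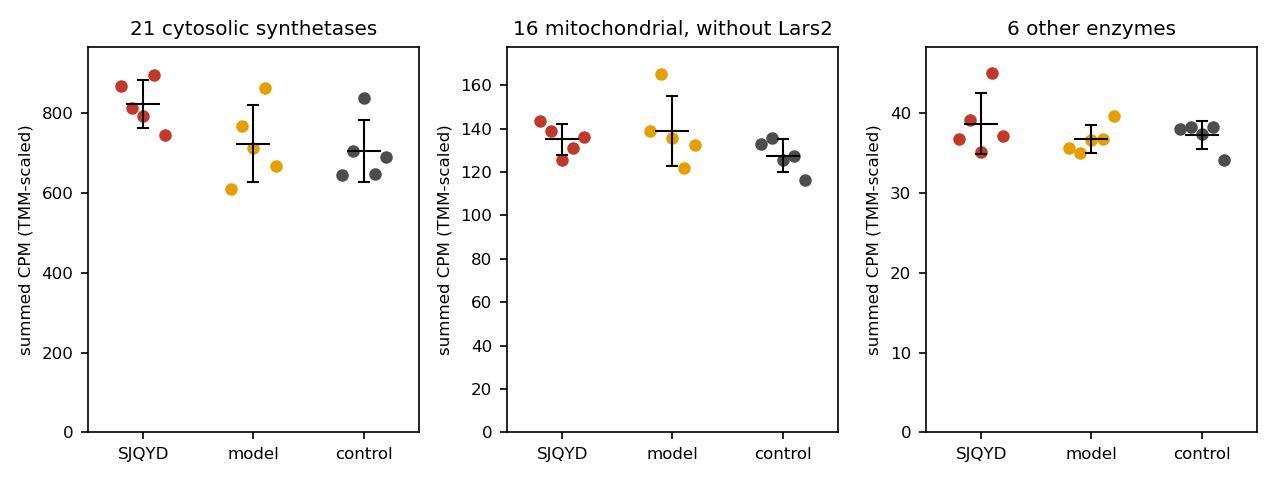
Summed CPM per library of the 21 cytosolic synthetases, the 16 mitochondrial synthetases without Lars2 and the 6 other enzymes, with the mean and SD of 5 libraries per group; the axes start at 0. The cytosolic mean is 823 CPM in SJQYD glands, against 724 in model and 706 in control glands, with overlapping libraries.

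RefSeq promoter sequences of GRCm38.p6 were found by symbol for 32 of the 44 members. They were searched on both strands for TGATGNAA, the core of the element that binds Atf4 in amino acid response genes, because many synthetase genes are known targets of that factor. Windows ran from 250 bases before to 50 bases after the start. The core was in 5 of 32 members, or 15.6%, beside 4.51% of 27025 mouse genes. These 5 members were Aars, Gars, Iars, Tars and Yars. Sites of 30 bases from 4 of them are printed 5′ to 3′ on the strand of the gene, with the core in capitals, which reads as its reverse complement in all but Yars. Tars and Yars, both called in a comparison, hold the same core letters on opposite strands. Iars, which was not called in any comparison, holds the same core letters as Tars on the same strand of the gene.
Tars, chr15:11399655-11399684, minus strand: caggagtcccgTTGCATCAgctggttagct
Yars, chr4:129189895-129189924, plus strand: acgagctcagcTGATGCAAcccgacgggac
Iars, chr13:49682126-49682155, plus strand: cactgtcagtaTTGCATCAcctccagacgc
Gars, chr6:55037960-55037989, plus strand: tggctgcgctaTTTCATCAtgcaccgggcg

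The 250 bases before the RefSeq start of Qars and Tars, the 2 members called between SJQYD and model glands, are shown to set a window without the core beside a window that holds it, in capitals. The RefSeq start of Qars lies downstream of the start in the files, so its window lies inside the gene as given above, and the bases before the start in the files were not searched. A match is a run of letters and does not show binding, and no match says only that these letters are not in the window.
Qars, chr9:108507755-108508004, plus strand: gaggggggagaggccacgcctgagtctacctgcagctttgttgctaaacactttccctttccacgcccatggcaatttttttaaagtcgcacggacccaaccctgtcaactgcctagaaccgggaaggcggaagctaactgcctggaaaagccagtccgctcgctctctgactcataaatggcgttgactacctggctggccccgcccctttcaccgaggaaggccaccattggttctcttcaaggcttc
Tars, chr15:11399659-11399908, minus strand: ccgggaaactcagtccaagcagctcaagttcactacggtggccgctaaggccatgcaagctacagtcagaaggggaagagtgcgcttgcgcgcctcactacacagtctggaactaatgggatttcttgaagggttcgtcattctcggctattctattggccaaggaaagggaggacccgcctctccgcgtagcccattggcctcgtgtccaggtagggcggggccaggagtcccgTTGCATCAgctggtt

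The 5 members with the core had log2 fold changes from -0.08 to 0.55 in SJQYD against model, with a median of 0.25 and 1 called (Tars), and the 27 without it a median of 0.05 and 1 called (Qars). In SJQYD against control the medians were 0.20 with the core, with 1 called (Yars), and 0.02 without it, with 3 called. In model against control they were -0.04 with 0 called and 0.08 with 1 called. The values of the 5 are spread: Iars, with the core, stood lower in SJQYD than in control glands. The E-box CACGTG, a palindrome searched likewise, was in 5 of 32 members (Aars, Ears2, Farsb, Iars and Tars), beside 8.09% of mouse genes.

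Genes that act with the synthetases were taken from fixed lists, whose counts stand beside a called share of all tested genes of 5.07% in model against control, 2.75% in SJQYD against model and 11.1% in SJQYD against control. Of the 3 scaffold genes of the multisynthetase complex, 0 were called in model against control or in SJQYD against model. In SJQYD against control Eef1e1, a scaffold protein, fell by 0.71 ± 0.18 on the log2 scale (edgeR adjusted p = 0.0165), at 3.62 ± 0.280 CPM in SJQYD glands, against 5.93 ± 1.26 CPM in control glands. Of 9 genes of editing and transfer RNA end processing, 1 fell in model against control and 1 in SJQYD against control. Both were Prorsd1, which is related to the editing domain of bacterial prolyl-tRNA synthetases, at 5.29 ± 0.674 CPM in SJQYD, 4.59 ± 0.867 CPM in model and 7.47 ± 0.751 CPM in control glands. Its log2 fold change in SJQYD against control was -0.50 ± 0.15 (edgeR adjusted p = 0.0426), which turned to 0.14 with total-count scaling.

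The list of cytosolic elongation factors, which act at the ribosome, holds 9 genes, among them Eef2k, the kinase that inhibits Eef2. Of the 9, 1 rose in SJQYD against model glands, Eef2k, while the other 8 had negative values without a call; 3 fell in SJQYD against control glands and 0 were called in model against control. Eef2, the translocase, fell by 0.69 ± 0.13 on the log2 scale in SJQYD against control glands (edgeR adjusted p = 0.00437), at 515 ± 29.4 CPM in SJQYD, against 828 ± 97.9 CPM in control. Eef1a1, which delivers the charged transfer RNA, fell by 0.57 ± 0.13 and Eif5a by 0.52 ± 0.15 with TMM, while with total-count scaling they stood at 0.026 and 0.15. Eef2k rose in SJQYD against model by 0.51 ± 0.12 (edgeR adjusted p = 0.0274). Of 10 mitochondrial translation factors, Tsfm, an elongation factor, rose by 0.69 ± 0.15 in SJQYD against model and by 0.61 ± 0.15 against control (edgeR adjusted p = 0.0186 and 0.0158), and the other 9 were not called in any comparison.

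Of 32 tested genes of the list of Atf4 and its targets outside the synthetases, 0 rose and 1 fell in model against control, 2 rose and 0 fell in SJQYD against model, and 3 rose and 1 fell in SJQYD against control. These are 3.13%, 6.25% and 12.5% of the list, beside 5.07%, 2.75% and 11.1% of all tested genes. Atf4 itself stood at 288, 226, 202, 210 and 163 CPM in SJQYD 1 to 5, against 119, 129, 135, 148 and 104 CPM in model 1 to 5. Control 1 to 5 had 138, 162, 157, 154 and 120 CPM. SJQYD libraries lay above all others, with SJQYD 5 close to control 2. The log2 fold change was 0.78 ± 0.14 against model (edgeR adjusted p = 0.00798) and 0.57 ± 0.14 against control (edgeR adjusted p = 0.0179).

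Slc1a5, a transporter of glutamine and other neutral amino acids, rose by 0.72 ± 0.15 in SJQYD against model and by 0.66 ± 0.15 against control (edgeR adjusted p = 0.017 and 0.0118). Ddit3, a transcription factor of the stress response, rose by 1.29 ± 0.24 in SJQYD against control (edgeR adjusted p = 0.00359), and Vldlr, a lipoprotein receptor, fell by 0.88 ± 0.22. Slc38a2, an amino acid transporter, fell in model against control by 0.55 ± 0.12 (edgeR adjusted p = 0.0153). Asns, asparagine synthetase, was not called, at 99.7 ± 15.4 CPM in SJQYD, 92.8 ± 39.5 CPM in model and 105 ± 17.6 CPM in control glands. The list median was -0.05 in model against control, 0.15 in SJQYD against model and 0.18 in SJQYD against control.

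Of 9 tested genes of the integrated stress response kinases and phosphatase, 0 were called in model against control or in SJQYD against model, and 3 rose in SJQYD against control. They were Ppp1r15a, which directs the dephosphorylation of eIF2 alpha, at 0.40 ± 0.10, Gcn1, which activates the kinase Gcn2, at 0.42 ± 0.11, and Impact, which inhibits it, at 0.60 ± 0.17 (edgeR adjusted p = 0.02, 0.0225 and 0.0354). Of 21 genes of RNA polymerase III and its factors, which transcribe transfer RNA genes, 2 fell in model against control, 2 rose in SJQYD against model and 1 rose in SJQYD against control, or 9.52%, 9.52% and 4.76%, the last below the 11.1% of all tested genes. Gtf3c1 had a log2 fold change of -0.39 ± 0.10 and Polr3e of -0.50 ± 0.14, and with total-count scaling these were 0.11 and 0.018. Polr3e rose by 0.76 ± 0.14 and Polr3d by 0.54 ± 0.14 in SJQYD against model (edgeR adjusted p = 0.00685 and 0.0401), and Brf1, an initiation factor, by 0.53 ± 0.15 in SJQYD against control (edgeR adjusted p = 0.0329).

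Folding genes of the endoplasmic reticulum, where secreted proteins are folded, were counted in the same way. Of 16, 8 fell and 0 rose in model against control, 6 rose and 0 fell in SJQYD against model, and 3 rose and 1 fell in SJQYD against control. List medians were -0.53, 0.50 and -0.07, beside 0.07, 0.07 and 0.11 for the synthesis genes in the same order. Hyou1, a chaperone, stood at 50.0 ± 8.68 CPM in SJQYD glands, 23.8 ± 5.62 CPM in model glands and 42.1 ± 7.77 CPM in control glands. Its log2 fold change was 1.07 ± 0.17 in SJQYD against model and -0.82 ± 0.17 in model against control (edgeR adjusted p = 0.00212 and 0.0114). The libraries are shared between these comparisons, and the difference between the lists was not tested.

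The number of members called depended on the scaling. TMM assumes that most genes do not differ, and total-count scaling leaves the Mucl2 share in the scale. With total counts the median log2 fold change of all tested genes was 0.52 in model against control, 0.08 in SJQYD against model and 0.63 in SJQYD against control, and the members' median stood above it by 0.04, 0.11 and 0.10, where with TMM it stood above it by 0.03, 0.10 and 0.07. Members called were then 5 higher, 0 and 19 higher of 44, beside 1523, 27 and 4579 of 18136 tested genes called higher. Of all calls 97.3%, 62.8% and 97.9% were higher, against 50.7%, 69.5% and 47.0% with TMM. Against control the SJQYD log2 fold changes of Qars and Lars2 were then 1.28 and 1.64, and these as well as Farsa and Yars stayed called.

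Some members share exons with another gene. Exons of 12 members overlapped those of a neighbour by at least 150 bases, 11 on the opposite strand and 1, Aars with Exosc6, on the same strand. The libraries were made to keep the strand, but whether counting used it is not given in the sources used here. The overlap took 58.8% of the exon bases of Pstk and 22.9% of those of Iars2, and Farsb, Hars and Nars2 had 9.47%, 7.97% and 4.08%, so their values can hold reads of the neighbour. None of the 6 called members was among the 12.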

How the data were processed

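Whole-number counts per gene were deposited by the authors, with a further table of FPKM values (per gene length and library size) that holds KEGG annotations. Per the labels' protocols, Trizol RNA was purified on oligo-dT beads, and stranded libraries whose adapters carry molecular identifiers were read from both ends for 150 bases. The submitters' processing notes name StringTie 1.3.4d, HISAT2 2.0.4, cutadapt 1.9, edgeR, DESeq2 and UMI-tools, and the build mm9; the coordinates in the files equal GRCm38 annotation for 28337 of 32385 genes (87.5%) and 35 of 44 members, so GRCm38 is given. Counts were analysed in R 4.3.3 with edgeR 4.0.16: 18136 of 55401 genes passed the default filter, libraries were scaled by TMM, and all 15 libraries entered 1 robust quasi-likelihood model of the 3 group means. A gene was called where its p, adjusted by Benjamini-Hochberg over all tested genes, was under 0.05; intervals are 95%. The fit was tested on simulated data. Values of 1 member and 1 site sequence are not reported here. Fold changes are log2 with SE. Intervals and totals cover counting error and library spread only. Alternatives used DESeq2 1.42.0, limma 3.58.1, other scalings and filters, log2(FPKM + 1), log2(FPKM + 0.1), a replicate block and each library left out. Libraries of a group differed by a chi-square of at least 74.0 per gene. The rule for named genes took members called in any comparison, the 2 uncalled with the smallest p in each comparison, the 2 highest in each role, Wars, Gars, Aars, Eprs and Kars, up to 4 called genes of each list, Atf4, Asns and Mucl2. Members, lists, motifs and this rule were chosen with earlier results of these data known.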

Additional observations from a re-analysis of the deposited data

Results flagged for a closer look

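In 84 groups of 5 libraries, formed by the named members and the sums by role, 7 held a library far from its group. Chance gives about 1 in 20 for independent groups. These groups share libraries and some sums hold the same genes, so 7 of 84 cannot be set against that rate. Gars, the glycyl-tRNA synthetase, was at 61.6 CPM in model 4, against 30.4 to 31.9 CPM in the other model libraries. In the SJQYD group Farsa was at 27.1 CPM in SJQYD 5, against 22.2 to 23.2 CPM in the others, and Hars at 9.48 CPM in SJQYD 1, against 8.28 to 8.40 CPM. Kars was at 29.0 CPM in SJQYD 3, below 31.5 to 32.4 CPM in the others. Sepsecs was at 16.0 CPM in SJQYD 4, against 11.0 to 12.4 CPM. The summed level of the multisynthetase complex was 353 CPM in SJQYD 4, against 295 to 307 CPM in the other SJQYD libraries, and that of the 6 other enzymes was 34.2 CPM in control 5, below 37.4 to 38.3 CPM in the other controls.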

How the results depend on the processing

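The 28 alternatives moved the number of calls and 0 directions of members called in the edgeR fit. Qars and Farsa against control were kept in 28 of 28, Qars against model in 24, Tars against model in 20, Lars2 against control in 19, Yars against control in 14 and Yars2 in model against control in 7. Counts follow in the order model against control, SJQYD against model, SJQYD against control. Members called were 1, 2 and 4 with the settings reported, 5, 0 and 19 with total counts, 2, 5 and 9 with DESeq2, 2, 4 and 10 with voom, 5, 0 and 19 with log2(FPKM + 1), 6, 0 and 19 with log2(FPKM + 0.1) and 0, 0 and 11 with log2(FPKM + 1) over all genes. They were 0 in the first comparison with upper quartile factors, without a filter or with the compared groups alone, and 2 without control 2, model 3 and SJQYD 1 together. Genes called were 1565, 43 and 4679 with total counts, 1447, 68 and 3626 with log2(FPKM + 1), and 1958, 57 and 4046 with log2(FPKM + 0.1). The FPKM settings not over all genes tested only 39 of the 44 members and 12436 genes. Genes called were 1816, 1082 and 2906 with DESeq2, 1376, 692 and 2451 with voom, and 555, 48 and 2003 with log2(FPKM + 1) over all genes. They were 466 in the first comparison with its groups alone, and 1507, 186 and 1964 without the 3 libraries. Without 1 library members ran from 0 to 4, 1 to 4 and 2 to 7, and genes from 354 to 1799, 333 to 527 and 1240 to 2626. The extremes were without control 2 (4 members, 1799 and 2626 genes), model 2 (354) and control 5 (1240). Without model 4, members were 3, 4 and 7 and genes 1304, 500 and 2168. The cause of these shifts was not tested.

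Outside the members 19 values reversed. With total counts they were, in model against control, Gtf3c1 0.11, Polr3e 0.018 and Syvn1 0.044, and in SJQYD against control Dnajc3 0.075, Eef1a1 0.026, Eif5a 0.15 and Prorsd1 0.14. With log2(FPKM + 1), with the filter or over all genes, they were Gtf3c1 0.052, Syvn1 0.026, Eif5a 0.030 and Prorsd1 0.048, and with log2(FPKM + 0.1) Gtf3c1 0.087, Syvn1 0.029, Eif5a 0.029 and Prorsd1 0.051. Replicate numbers did not pair the libraries (correlations of deviations from -0.23 to 0.16); with the replicate block members called were 0, 2 and 4 and genes 896, 401 and 1799. In it Yars2 lost its call in the first comparison and Lars2 and Yars in the third (edgeR adjusted p = 0.0745, 0.0786 and 0.0699), where Tars2 and Iars were called.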

Other observations

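Model 4 was looked at after the values were seen, because leaving it out changed the calls. It was the highest of the 5 model libraries in 8 of the 21 cytosolic synthetases, beside 7 for model 3 and 6 for model 2, and SJQYD 1 was the highest SJQYD library in 11 and control 3 the highest control library in 9. Its Gars and Nars, at 61.6 and 74.4 CPM, stood beside 30.4 to 31.9 CPM and 39.4 to 43.1 CPM in the other model libraries. Asns was at 162 CPM in model 4, against 65.2 to 88.4 CPM in the others, Atf5 at 101 CPM, against 23.8 to 53.0 CPM, and Slc1a5 at 109 CPM, against 60.6 to 86.0 CPM. Atf4 was at 148 CPM in model 4, against 104 to 135 CPM. Asns, Atf5, Slc1a5 and Atf4 were picked from the 32 tested genes of the Atf4 list, and the others are not given by library. Without model 4, edgeR called Hars, Nars and Iars lower in model against control, at -0.70 ± 0.15, -0.47 ± 0.11 and -0.63 ± 0.16 (adjusted p = 0.0147, 0.0185 and 0.0267). In SJQYD against model it called Nars at 0.71 ± 0.11 (adjusted p = 0.00209) and Cars2 at -0.51 ± 0.13 (adjusted p = 0.0487) beside Qars and Tars. With model 4 these genes were not called.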
